A study of Danio rerio with 3 samples.

Results

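The Hox cluster genes of the zebrafish (Danio rerio) were compared at 22 hpf (hours post fertilization) between embryos injected with MO-grnA and wild-type embryos that were left untreated. This agent, a morpholino, is a synthetic antisense oligomer against granulin A, of which 2 to 3 nl were injected at the 1-cell stage. Wild-type embryos received no injection, so injection and morpholino cannot be told apart in these ratios. RNA of 200 morphant and 200 wild-type whole embryos was hybridised together on each of 3 two-colour Agilent arrays, labelled as biological replicates, with the dyes swapped in replicate 3. A probe was taken as a Hox probe where its accession matched a RefSeq symbol of hoxa, hoxb, hoxc or hoxd with a number. This gave 86 of the 43603 probes and 46 of the 11668 genes that could be named, in 7 clusters. The RefSeq table holds 50 such symbols, and hoxa10ap, hoxc10a, hoxc11b and hoxd9a matched no probe.

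Hox genes encode homeodomain transcription factors that give cells of the hindbrain, spinal cord, somites and fin buds their position along the body. They lie in clusters, and their order along the chromosome follows the order in which they are switched on and how far forward they are expressed. Zebrafish carry duplicated clusters, named a and b, from a genome duplication in the ancestors of the teleosts. Low paralogue numbers are used in the hindbrain, middle numbers in the trunk, and high numbers in the tail and the distal fin.

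All 86 Hox probes were well above background in at least 1 channel on all 3 arrays, and 85 were so in both. None was saturated. Spots marked as non-uniform or as outliers removed 12 probes, 11 of them on replicate 1 and 1 on replicate 2, which left 74 tested probes of 42 genes. The 4 genes left without a tested probe had ratios on replicates 2 and 3 only. As log2 of morphant over wild type these were -0.12 and -0.17 for hoxa9b, 0.15 and -0.01 for hoxb6b, 0.21 and 0.16 for hoxa13a, and 0.45 and 0.35 for hoxc13b. The other marked probes belong to genes that kept a tested probe (hoxb1b, hoxc3a, hoxd3a, hoxa4a, hoxc5a, hoxa10b and hoxc11a).

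The morphant RNA lit 28635 to 31551 spots of an array well above background, and the wild-type RNA 28822 to 31010. Slide 1 carried replicate 1 and slide 2 the other two. Marked spots made up 7.49% of replicate 1's non-control spots, and 0.915% and 0.909% of those of replicates 2 and 3. The transcript of the targeted gene, grna, had log2 ratios of 0.19, 0.34 and 0.39 and a mean of 0.31 (SE 0.08, adjusted p = 0.0227), and its call ended without replicate 2 (adjusted p = 0.107) or replicate 3 (adjusted p = 0.109), with median centring (adjusted p = 0.424) and without normalization (adjusted p = 0.968). A morpholino can block translation and leave the transcript, so this probe does not check the labels. Defining markers of the head, hindbrain, spinal cord, somites, tail bud and fin bud were well above background in both channels on all 3 arrays for 26 of the 27 marker genes with a probe.

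Changes of Hox transcripts in morphants were small and ran in both directions. Each gene was read by its brightest tested probe, and a gene is called here where its adjusted p was under 0.05. Of the 42 tested genes, 5 rose and 10 fell in morphants, which is 35.7% called beside 41.3% of all 9231 named genes tested. The rises were 11.9% of Hox genes, beside 19.3% of all named genes, and the falls 23.8%, beside 22%. The genes that rose were hoxb3a, hoxa11a, hoxc12a, hoxb13a and hoxc13a. Those that fell were hoxb1b, hoxb5a, hoxc5a, hoxc6b, hoxb7a, hoxc8a, hoxd11a, hoxc12b, hoxd12a and hoxd13a. For hoxb7a and hoxd12a another probe rose. None of the 42 reached a 2-fold change past the threshold, beside 4.17% of all named genes, and 3 (7.14%) reached 0.5 on the log2 scale, beside 17.4%. The sign was the same on all 3 arrays in 28 genes (66.7%), beside 68.2%. In whole embryos, fewer cells that express a gene and less of its RNA per cell cannot be told apart.

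These counts depend on how the arrays were centred. With the arrays centred on their median in place of loess, no Hox gene was called, and 20 of the 21 called Hox probes were past the threshold no longer (adjusted p between 0.149 and 0.902). At an unadjusted p under 0.05 that fit had 1 higher and 0 lower Hox genes. It called 409 probes of the whole array higher and 306 lower, against 4514 and 4921 with loess. Without any normalization these were 95 and 20, and no Hox gene was called (0 higher and 0 lower at an unadjusted p under 0.05). Leaving out 1 replicate left 1 or 2 genes higher and 6 lower, and 9 of the 21 called probes kept their call without each replicate in turn. On the whole array 8234, 7344 and 6187 probes were called without replicates 1, 2 and 3, against 9435 with all 3 arrays. With the slide as a block 6 genes were higher and 11 lower, and 12223 probes of the whole array were called. That fit gives replicate 1, alone on slide 1, as much weight as replicates 2 and 3 together. Its residual comes from replicates 2 and 3 only.

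Over single probes, 10 of 74 were higher and 11 lower in morphants, 28.4% in all, beside 37.6% of the 25071 probes tested on the whole array. The 10 higher probes were 13.5%, beside 18%, and the 11 lower were 14.9%, beside 19.6%. Past the threshold and at least 2-fold was 1 Hox probe (1.35%), beside 3.87% of all probes. That probe, the dimmer hoxd12a probe, passed the background filter only by its morphant signal, where it is higher. Changes of at least 0.5 on the log2 scale were made by 6 Hox probes (8.11%), beside 16.3% of all. The median size of the log2 ratio, with its sign left out, was 0.133 for Hox genes and 0.218 for all named genes. The median log2 intensity was 10.1 for Hox probes and 9.14 for all probes, and ratio sizes at matched intensity were not compared.

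**Figure D1:**
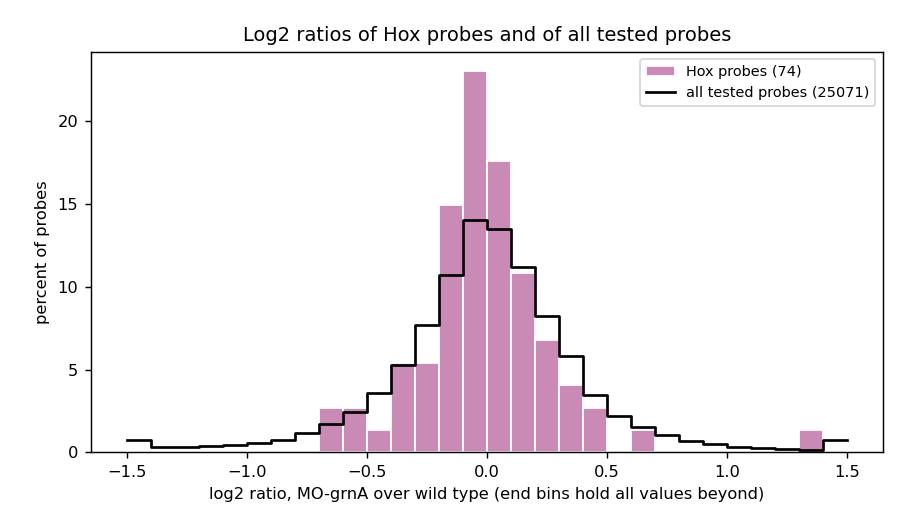
Percent of probes (vertical axis) by log2 ratio, MO-grnA over wild type, in steps of 0.1 (horizontal axis), for the 74 tested Hox probes (bars) and all 25071 tested probes (line). Hox ratios lie closer to 0, and 1 Hox probe exceeds a 2-fold change, a hoxd12a probe that passed the background filter only by its morphant signal.

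The median log2 ratio of the 42 Hox genes was -0.06, beside -0.00 for all named genes, and 26 lay below 0 and 16 above. On the single arrays the Hox median was -0.13, -0.09 and -0.07, so it was below 0 on all 3. With median centring the Hox median was 0.08 and that of all named genes 0.13, and without normalization they were 0.33 and 0.39, so the sign of the Hox median flips with the centring. The difference between the Hox median and that of all genes was -0.06 with loess, with median centring and without normalization. The last 2 must be equal, since median centring shifts all ratios of an array by the same amount. With loess this difference was -0.11 without replicate 3 and -0.02 without replicate 1.

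The ratios of the dye-swapped array stood somewhat apart in the Hox set. Replicate 3 was opposite in sign to both other arrays for 20 of 74 Hox probes (27%), beside 14.2% of all probes, and for 11 of 42 Hox genes (26.2%), beside 14% of named genes. Across the 74 probes, which share the arrays and their dyes, the log2 ratios correlated at 0.89 between replicates 1 and 2, 0.74 between 1 and 3 and 0.73 between 2 and 3. Over all tested probes these correlations were 0.84, 0.82 and 0.85. The same sign on all 3 arrays was seen in 44 Hox probes (59.5%), beside 65% of all. With a dye term in the fit 1 Hox gene was called higher and 6 lower. That fit called 7054 of 25071 probes on the whole array, against 9435 without the term.

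By position along the clusters, the falls were in all zones, and the share over all named genes was 19.3% higher and 22% lower. Among the anterior genes (paralogue groups 1 to 4), 1 of 14 rose and 1 fell, with a median of -0.01. Of the 11 central genes (groups 5 to 8) none rose and 5 fell, with a median of -0.13. In the posterior groups (9 to 13), 4 of 17 rose and 4 fell, with a median of -0.10. The difference between zones was not tested, since genes are not replicates. With median centring no gene of any zone was called and the medians were 0.14, 0.02 and 0.05.

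By cluster, HoxDa had 3 falls and no rise among 6 tested genes by their brightest probes, and both tested genes of HoxCb fell. The share over all named genes was 19.3% higher and 22% lower. hoxc13b, also of HoxCb but marked on replicate 1, had 0.45 and 0.35 on replicates 2 and 3. The calls of hoxd11a and hoxc12b ended without any single replicate, and with median centring no Hox gene was called. The medians were 0.07 for HoxAa (6 genes), 0.01 for HoxAb (4), -0.03 for HoxBa (11), -0.12 for HoxBb (3), -0.09 for HoxCa (10), -0.45 for HoxCb (2) and -0.22 for HoxDa (6). Rises and falls occurred side by side within HoxBa and within HoxCa, each with 2 of either. In HoxAa, 1 gene rose and none fell, in HoxAb none was called, and in HoxBb 1 fell.

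**Figure D2:**
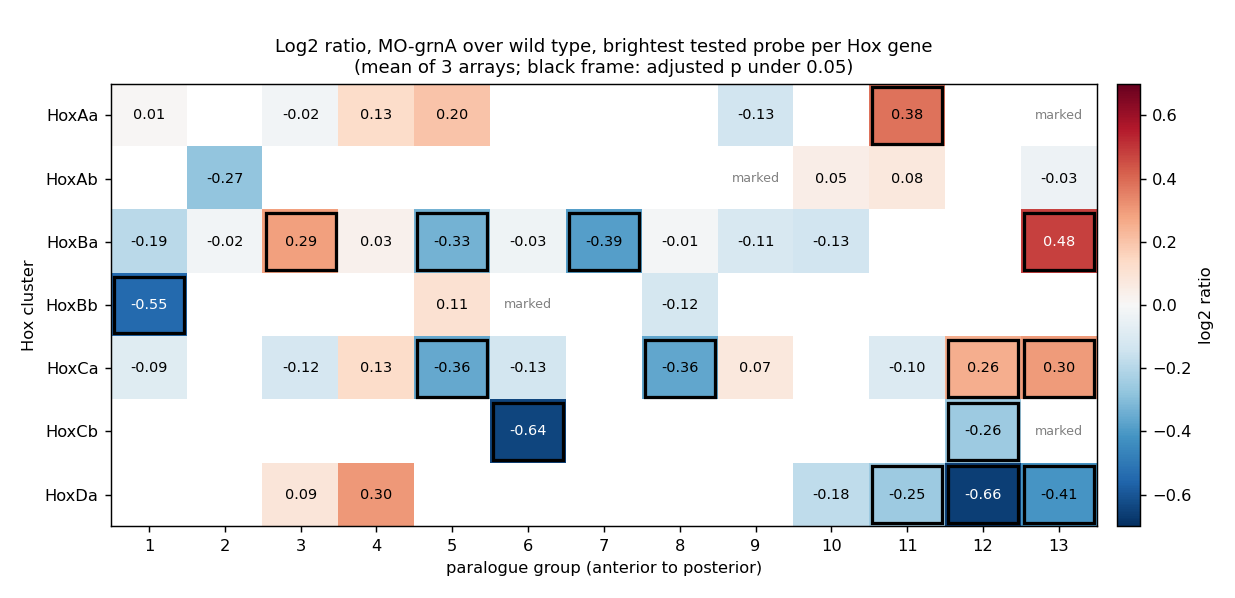
Mean log2 ratio over 3 arrays, MO-grnA over wild type, of the brightest tested probe of each Hox gene, by cluster (rows) and paralogue group from anterior to posterior (columns). Black frames are genes with adjusted p under 0.05, "marked" stands for genes without a tested probe, and empty cells have no probe; by these probes both tested HoxCb genes and hoxd11a, hoxd12a and hoxd13a fell, while hoxb13a, hoxc12a, hoxc13a and hoxa11a rose.

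Among the anterior genes, hoxb1b fell most. It encodes an early factor of hindbrain segmentation that responds to retinoic acid. Its normalized signals were 13043, 10890 and 12014 in morphants, against 20114, 16267 and 16217 in wild type, so the groups do not overlap. How many probes of the whole array show no such overlap was not counted, here or for the Hox genes below. These genes were called on the same arrays, so the lack of overlap adds no separate support. The log2 ratios were -0.62, -0.58 and -0.43, with a mean of -0.55 (SE 0.08, n = 3 arrays, adjusted p = 0.00182), which is 1.46-fold lower in morphants. The call held without each replicate in turn. A marked hoxb1b probe had -0.18 and -0.27 on replicates 2 and 3.

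The related hoxb1a, which specifies rhombomere 4 and its facial motor neurons, had ratios of -0.21, -0.21 and -0.15, and its mean of -0.19 was not past the threshold (adjusted p = 0.0963). hoxa1a stood at 0.01 (0.03, -0.07 and 0.07 on the arrays) and hoxc1a at -0.09 (-0.28, -0.24 and 0.26). Neither passed the test. Thus 1 of the 4 genes of group 1 was called.

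In group 2, hoxa2b, a gene of the second pharyngeal arch, had -0.57, -0.20 and -0.04, a mean of -0.27 (adjusted p = 0.088). Its other probes had means of -0.10 and -0.15. With the slide as a block the value was -0.35 and passed the threshold (adjusted p = 0.00336). hoxb2a had -0.02.

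hoxb3a, of the caudal hindbrain, was the anterior gene that rose. Its signals were 4858, 4746 and 4472 in morphants, against 3760, 3930 and 3826 in wild type, with no overlap. The ratios of 0.37, 0.27 and 0.23 gave a mean of 0.29 (SE 0.08, adjusted p = 0.0257), a 1.22-fold change. The call ended when any replicate was left out, with an adjusted p of 0.0742 without replicate 1, 0.0993 without replicate 2 and 0.0664 without replicate 3.

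The remaining genes of groups 3 and 4 did not pass the test. hoxd3a had 0.05, 0.14 and 0.06 (mean 0.09), while hoxa3a had a mean of -0.02 and hoxc3a of -0.12. All 4 group 4 genes, used in the hindbrain and anterior spinal cord, lay above 0. hoxd4a had 0.58, 0.16 and 0.17 (mean 0.30, adjusted p = 0.0526). With the slide as a block, which gives replicate 1 more weight, it had 0.37 (adjusted p = 0.0018). hoxa4a had 0.30, 0.18 and -0.09 (mean 0.13), hoxc4a 0.08, 0.21 and 0.10 (mean 0.13), and hoxb4a a mean of 0.03. On replicate 3, the dye swap, 2 of the 4 (hoxa4a and hoxb4a) lay below 0.

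By their brightest probes, all 5 called genes of the central groups fell. hoxc6b, a trunk gene of the HoxCb cluster, had signals of 1048, 897 and 977 in morphants, against 1618, 1548 and 1389 in wild type. Its ratios of -0.63, -0.79 and -0.51 gave a mean of -0.64 (SE 0.09, adjusted p = 0.00109), a 1.56-fold lower level, and the call held without each replicate in turn. No morphant value reached the lowest wild-type value.

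hoxc8a, a gene of the trunk spinal cord and somites, was read by 3 probes that all lay below 0. The brightest had signals of 16863, 17076 and 15661 in morphants, against 24396, 19160 and 20554 in wild type. Its ratios were -0.53, -0.17 and -0.39 (mean -0.36, SE 0.10, adjusted p = 0.0192). The next had -0.40, -0.49 and -0.65 (mean -0.51, adjusted p = 0.00293), and the third a mean of -0.25 (adjusted p = 0.0557). The call of the brightest probe ended without replicate 1 (adjusted p = 0.0507) and without replicate 3 (adjusted p = 0.0996), whereas that of the next probe held in each case.

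In group 5, which takes part in placing the pectoral fin and in the trunk, hoxc5a and hoxb5a fell. hoxc5a had -0.38, -0.24 and -0.46 (mean -0.36, SE 0.09, adjusted p = 0.0127), and its call ended without replicate 3 (adjusted p = 0.0778). hoxb5a had -0.55, -0.31 and -0.13 (mean -0.33, SE 0.10, adjusted p = 0.0331), while its other probe had a mean of -0.02 and the mean of both probes, -0.17, was not past the threshold (adjusted p = 0.144). The hoxb5a call ended without replicate 1 (adjusted p = 0.123) and without replicate 2 (adjusted p = 0.0884). hoxa5a had 0.18, 0.21 and 0.21 (mean 0.20) and hoxb5b 0.29, 0.18 and -0.15 (mean 0.11), and neither passed the test.

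The brightest probe of hoxb7a, the only group 7 gene matched to a probe, had ratios of -0.50, -0.44 and -0.22 and a mean of -0.39 (SE 0.09, adjusted p = 0.0117). That call ended without replicate 2 (adjusted p = 0.0584). Another hoxb7a probe rose and is described below with the probes that disagree. The central genes not past the threshold were hoxb6a at -0.03, hoxc6a at -0.13 (-0.03, -0.23 and -0.13), hoxb8a at -0.01 and hoxb8b at -0.12.

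In the posterior groups, by their brightest probes, hoxd11a, hoxd12a, hoxd13a and hoxc12b fell, while hoxa11a, hoxb13a, hoxc12a and hoxc13a rose. Among these, only hoxd12a, hoxd13a and hoxb13a kept that call without each replicate in turn, and another hoxd12a probe rose. hoxd13a, which acts in the distal fin and the cloacal region, had signals of 1734, 1624 and 1775 in morphants, against 2383, 2211 and 2243 in wild type. The ratios were -0.46, -0.45 and -0.34 (mean -0.41, SE 0.08, adjusted p = 0.00551), 1.33-fold lower in morphants. The groups do not overlap, and the call held without each replicate.

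hoxd11a fell less, with -0.37, -0.15 and -0.23 (mean -0.25, SE 0.08, adjusted p = 0.0484). Its call ended without any single replicate (adjusted p = 0.174 without replicate 1, 0.0945 without replicate 2 and 0.127 without replicate 3). hoxd10a, next to it in the cluster, had a mean of -0.18 and was not called. hoxd12a is described below, since its 2 probes went opposite ways.

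hoxb13a, a gene of the tail bud, had the largest rise among the brightest Hox probes. Its signals were 602, 740 and 827 in morphants, against 476, 549 and 519 in wild type, with no overlap. The ratios of 0.34, 0.43 and 0.67 gave a mean of 0.48 (SE 0.09, adjusted p = 0.00533), a 1.40-fold change that held without each replicate. The dimmer hoxb13a probe had 0.20, 0.27 and 0.38 (mean 0.28, adjusted p = 0.0297), and its call ended without replicate 2 (adjusted p = 0.111) and without replicate 3 (adjusted p = 0.129).

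hoxc13a, expressed in the tail, rose on both probes. The brightest had signals of 5785, 5191 and 5486 in morphants, against 4431, 4630 and 4327 in wild type. Its ratios of 0.38, 0.17 and 0.34 gave a mean of 0.30 (SE 0.09, adjusted p = 0.0277), a call that was lost without replicate 1 (adjusted p = 0.0729) or 3 (adjusted p = 0.117). The dimmer probe had 0.69, 0.58 and 0.21 (mean 0.50, SE 0.11, adjusted p = 0.00875) and kept its call in each case. Both probes were above 0 on every array.

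hoxc12a also rose on both of its probes. The brightest had 0.33, 0.15 and 0.29 (mean 0.26, SE 0.08, adjusted p = 0.0425) and the dimmer 0.53, 0.21 and 0.36 (mean 0.37, adjusted p = 0.0159). The call of the brightest ended without any single replicate (adjusted p = 0.122 without replicate 1, 0.0841 without replicate 2 and 0.139 without replicate 3), and that of the dimmer without replicate 3 (adjusted p = 0.0783). Its duplicate hoxc12b fell, with -0.37, -0.17 and -0.23 (mean -0.26, SE 0.08, adjusted p = 0.0447), and the other hoxc12b probe had a mean of -0.10. The hoxc12b call likewise ended without any replicate (adjusted p = 0.16 without replicate 1, 0.0972 without replicate 2 and 0.116 without replicate 3).

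hoxa11a, of the fin and posterior axis, had 0.77, 0.28 and 0.10 (mean 0.38, SE 0.13, adjusted p = 0.0475). Most of that mean came from replicate 1, on slide 1, without which it was 0.19 (adjusted p = 0.189). The adjusted p was 0.0607 without replicate 2 and 0.0545 without replicate 3. Signals were 196, 144 and 133 in morphants, against 116, 119 and 124 in wild type, close together on replicate 3. By the authors' log ratio the value was 0.73 (adjusted p = 0.0621).

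The other posterior genes were not called. hoxa9a had -0.15, -0.12 and -0.13 (mean -0.13), hoxc9a 0.01, 0.17 and 0.04 (mean 0.07), and hoxb9a a mean of -0.11. hoxb10a had -0.13, -0.18 and -0.09 (mean -0.13). For the brightest hoxa10b probe the arrays disagreed, with 0.18, 0.38 and -0.42 (mean 0.05), so the dye swap was opposite to both other arrays. The 2 marked hoxa10b probes also turned sign, with 0.18 and 0.34 on replicate 2 and -0.23 and -0.56 on replicate 3. The other tested hoxa10b probe did not, with -0.10, -0.13 and -0.31 (mean -0.18). hoxa11b had 0.17, -0.15 and 0.21 (mean 0.08), hoxc11a -0.26, -0.16 and 0.13 (mean -0.10), and hoxa13b 0.01, 0.01 and -0.12 (mean -0.03). Across all zones the 27 genes not called lay between -0.27 and 0.30.

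**Figure D3:**
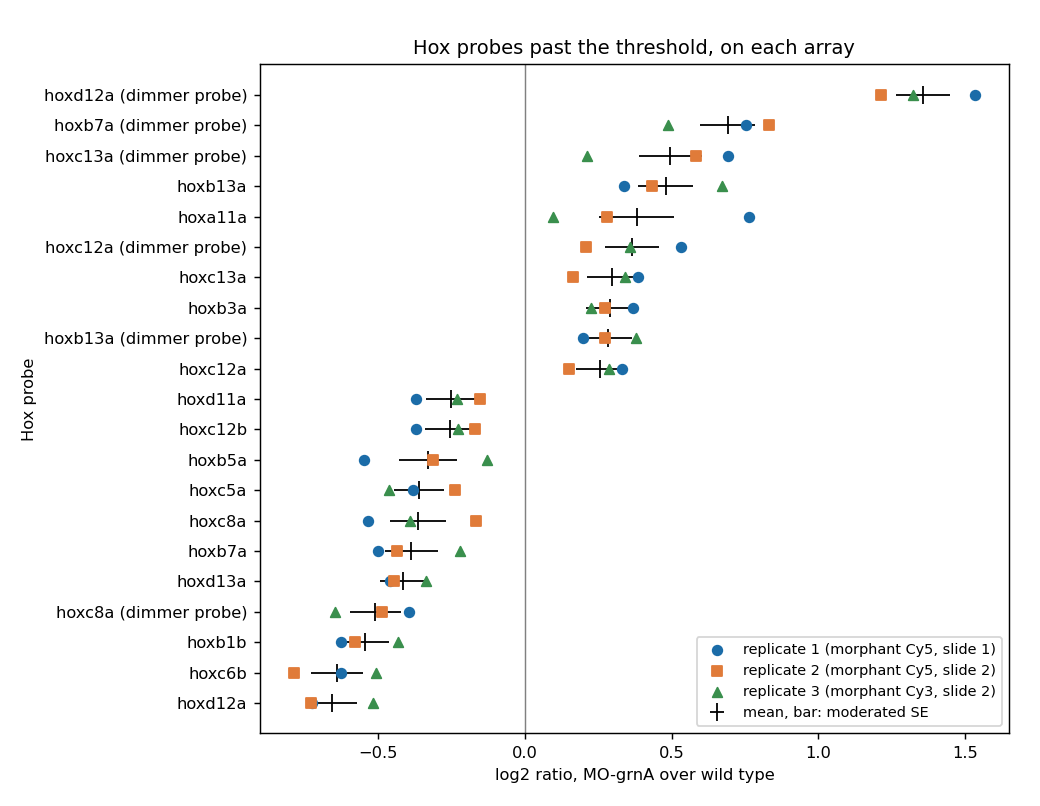
Log2 ratio, MO-grnA over wild type (horizontal axis), of each of the 21 Hox probes with adjusted p under 0.05, on each array (points) with the mean and its moderated SE (bar); "dimmer probe" marks a probe that is not the brightest of its gene. All 3 arrays lie on the same side of 0 for each of them, and hoxa11a spans 0.10 to 0.77.

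Probes of a gene could disagree. The brightest probe of hoxd12a, a gene of the fin bud and the posterior axis, had signals of 4171, 3116 and 3484 in morphants, against 6891, 5167 and 4991 in wild type. Its ratios were -0.72, -0.73 and -0.52 (mean -0.66, SE 0.09, adjusted p = 8.4e-04), 1.58-fold lower in morphants. Its dimmer probe had signals of 284, 269 and 262 in morphants, against 98, 116 and 105 in wild type. There the ratios were 1.53, 1.21 and 1.32 (mean 1.36, SE 0.09, adjusted p = 3.5e-05), 2.56-fold higher in morphants. In wild type this probe was well above background on 2 of 3 arrays.

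The gap between the brightest and the dimmer hoxd12a probe was 2.26, 1.94 and 1.84 on the 3 arrays (mean 2.01, SD 0.22). Both calls held without each replicate in turn. The dimmer probe was the only Hox probe still called with median centring (1.42, adjusted p = 0.0131). Its value was 1.88 with a normexp offset of 10 and 2.72 by the authors' log ratio, which adds no offset. Averaged over both probes hoxd12a came out at 0.35 (adjusted p = 0.0121), so the direction given for this gene depends on the probe. Which transcript or stretch of hoxd12a each probe reads was not analysed here.

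hoxb7a was the other such gene. Beside the brightest probe at -0.39, a dimmer probe had signals of 433, 454 and 385 in morphants, against 257, 255 and 274 in wild type. Its ratios were 0.75, 0.83 and 0.49 (mean 0.69, SE 0.09, adjusted p = 0.00104), and its call held without each replicate. The remaining hoxb7a probe had -0.14 (adjusted p = 0.217). With all probes averaged the gene stood at 0.06.

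Probes called in opposite directions were found in 2 of the 25 Hox genes with at least 2 tested probes (8%), beside 63 of 2678 such genes on the array (2.35%). For hoxd12a, 1 of the 2, the rising probe passed the background filter only by its morphant signal, where it is higher. The median gap between the highest and the lowest probe was 0.12 in Hox genes and 0.19 in all genes. All probes had the same sign in 17 of the 25. All were called in 1 direction in hoxb13a, hoxc12a and hoxc13a, some but not all in hoxb5a, hoxc8a and hoxc12b, and none in 17 genes.

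**Figure D4:**
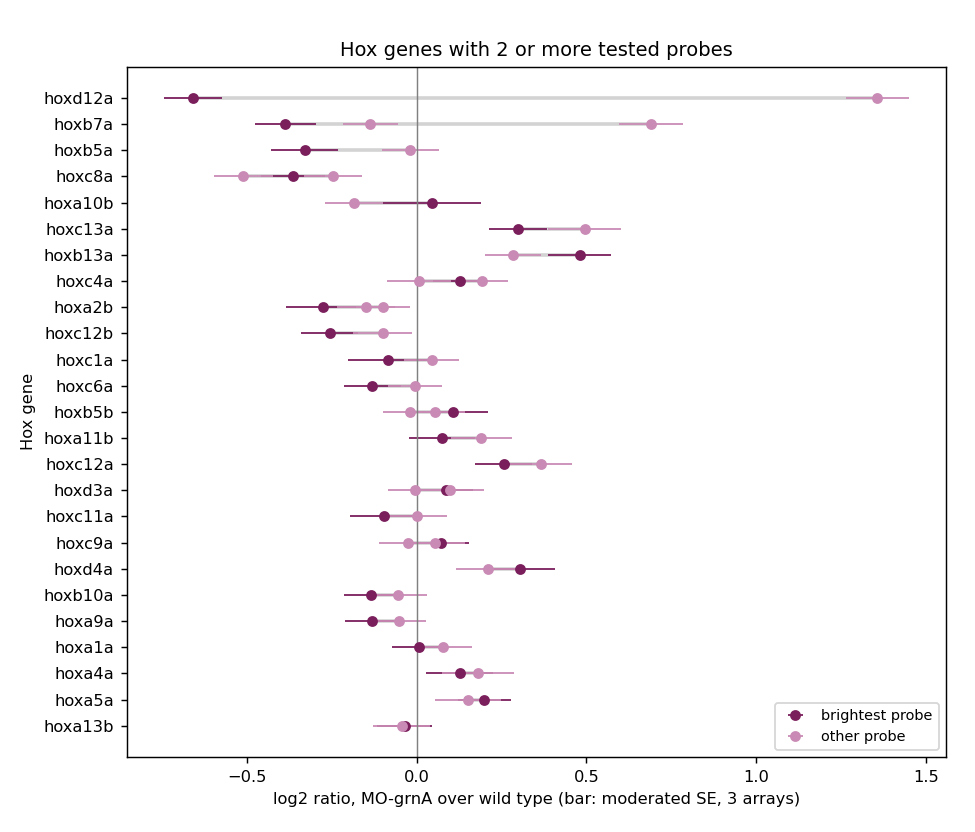
Mean log2 ratio with its moderated SE (horizontal axis, MO-grnA over wild type, 3 arrays) of every tested probe of the 25 Hox genes with at least 2 tested probes, ordered by the gap between their probes. hoxd12a and hoxb7a carry probes on both sides of 0 that are past the threshold.

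For 6 duplicate pairs both copies had a tested probe. Each difference of b minus a was taken on each array between the brightest tested probes. hoxb1b was lower than hoxb1a by this ratio of ratios on all 3 arrays, at -0.42, -0.37 and -0.28 (mean -0.36, SD 0.07). The marked hoxb1b probe, not used here, had -0.18 and -0.27 on replicates 2 and 3, where hoxb1a had -0.21 and -0.15. hoxc6b lay below hoxc6a, at -0.60, -0.56 and -0.38 (mean -0.51, SD 0.12). hoxc12b lay below hoxc12a, at -0.70, -0.32 and -0.51 (mean -0.51, SD 0.19). The other hoxc12b probe had a mean of -0.10, against -0.26 for the brightest.

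In these 3 pairs and in the hoxb8 pair the difference exceeded its SD and kept its sign on every array. The hoxb8 pair differed by less, at -0.11 (SD 0.04). The hoxb5 pair had a mean of 0.44 (SD 0.44) and the hoxa11 pair -0.31 (SD 0.37), and both turned sign on replicate 3. These differences were not tested, and the smallest p that an exact two-sided permutation test can give over 3 arrays is 0.25.

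Among the genes that act with or on the Hox clusters, 18 of 29 on the list of early activators and hindbrain regulators fell. That list also holds repressors, ved and vent among them, and cyp26 enzymes, which break retinoic acid down. In the other lists, 2 of 12 cofactors, 4 of 19 Polycomb genes and 3 of 10 Trithorax genes were called. Together with 24 genes linked to the Hox clusters and 8 other axial markers, these lists held 102 tested genes. Of those, 11 rose and 36 fell (46.1% called, beside 41.3% of all named genes), with a median of -0.14. With median centring none was called higher and 3 lower (7 and 9 at an unadjusted p under 0.05). The lists share some genes with the regional markers further on. These lists and markers were chosen with earlier results of these data known, so their shares are not independent of the data.

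Of 29 tested activators and hindbrain regulators, 2 rose and 18 fell (69% called, beside 41.3% called, 19.3% higher and 22% lower among all named genes). The median was -0.36, and 0.06 without normalization, where all named genes had 0.39. The largest falls were in ved and vent, homeobox repressors that promote ventral fate, and in cdx1a and wnt8a. cdx1a is a caudal-type factor that switches on posterior Hox genes, and wnt8a is a Wnt ligand of the margin and tail bud. ved had -1.79, -2.09 and -1.86 (mean -1.91, SE 0.09, adjusted p = 7.8e-06) and vent -1.42, -1.18 and -1.09 (mean -1.23, adjusted p = 5.8e-05). cdx1a had -1.87, -1.57 and -1.52 (mean -1.66, adjusted p = 1.7e-05), and its dimmer probe -0.33 (adjusted p = 0.0181). wnt8a had -1.21, -1.13 and -1.12 (mean -1.15, adjusted p = 3.9e-05).

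The 2 genes of that list that rose were rxraa and cyp26b1, and other genes of retinoic acid signalling were among the 18 that fell. rxraa, a retinoid X receptor, had 1.01, 0.80 and 0.73 (mean 0.85, SE 0.09, adjusted p = 3.1e-04), and its other probe a mean of 0.29 (adjusted p = 0.0795). cyp26b1, an enzyme that breaks retinoic acid down, had 0.99, 0.04 and 0.98 (mean 0.67, SE 0.18, adjusted p = 0.02), so replicate 2 stood apart. Its call ended without replicate 3 (adjusted p = 0.162), and its other probe had a mean of -0.04.

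TALE cofactors are the Pbx, Meis and related homeodomain proteins that bind DNA together with Hox proteins. Of 12 tested genes, 2 were called (16.7%, beside 41.3% of all named genes). meis3, a hindbrain cofactor, fell with -0.61, -0.46 and -0.26 (mean -0.44, SE 0.09, adjusted p = 0.00766). pbx1a rose with 0.40, 0.40 and 0.15 (mean 0.32, SE 0.09, adjusted p = 0.0261), a call that ended without replicate 1 (adjusted p = 0.0577) and without replicate 2 (adjusted p = 0.136). meis2b was not called by its brightest probe, at -0.17, but another of its probes had -2.30, -1.81 and -1.95 (mean -2.02, adjusted p = 1.1e-05), a value singled out after it was seen. In pknox1.1, also not called by its brightest probe, the dimmer probe was higher (0.24, adjusted p = 0.0439). The list's median was -0.08, and 0.04 with median centring.

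Of 19 tested Polycomb genes, which encode the complexes that keep Hox genes silent, 1 rose and 3 fell by their brightest probes. That is 21.1% called, beside 41.3% of all named genes, with a median of -0.08, and 0.07 with median centring. Among the genes not called, dimmer probes of ezh2 (0.50, adjusted p = 0.00307), mtf2 (0.50, adjusted p = 0.00471) and cbx8a (0.35, adjusted p = 0.0103) were higher. No dimmer probe of the list was called lower. phc2a, a subunit of Polycomb repressive complex 1, fell by 0.80 on the log2 scale (SE 0.09, adjusted p = 3.3e-04), and cbx2, another, fell by 0.36 (SE 0.08, adjusted p = 0.0118). aebp2 of complex 2 had -0.25 (SE 0.08, adjusted p = 0.0475), with 0.11 for its other probe, and its call ended without any replicate (adjusted p = 0.147 without replicate 1, 0.0896 without replicate 2 and 0.145 without replicate 3). The histone binder rbbp4 rose by 0.31 (SE 0.08, adjusted p = 0.0211), and its call ended without replicate 2 (adjusted p = 0.145) and without replicate 3 (adjusted p = 0.0675).

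Of 10 tested Trithorax and related activators, which keep Hox genes on, 3 were called (30%, beside 41.3% of all named genes). The list's median was 0.01. Among the genes not called by their brightest probe, dimmer probes of ash2l (0.29, adjusted p = 0.0278) and kmt2a (0.28, adjusted p = 0.0328) were higher. kat6a, a histone acetyltransferase, rose by 0.58 (SE 0.08, adjusted p = 0.0013), and kdm6bb, which removes the Polycomb mark, rose by 0.51 (SE 0.11, adjusted p = 0.00864). psip1a fell by 0.25 (SE 0.08, adjusted p = 0.0474), and its call ended without any replicate (adjusted p = 0.158 without replicate 1, 0.0907 without replicate 2 and 0.136 without replicate 3).

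**Figure D5:**
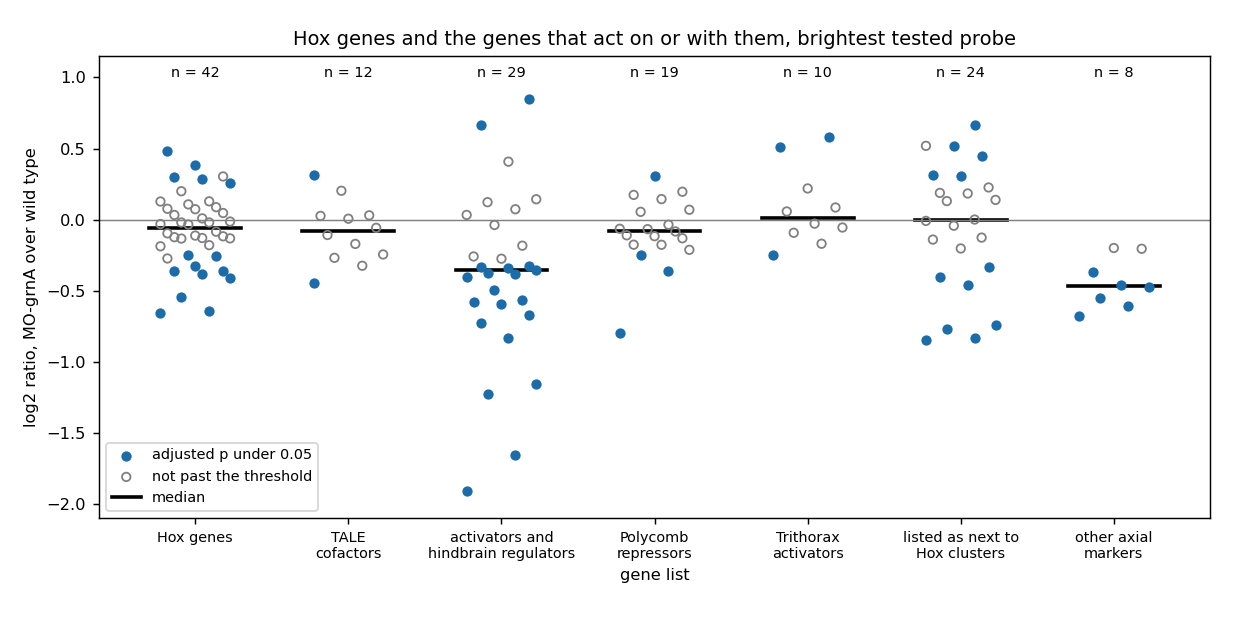
Mean log2 ratio over 3 arrays, MO-grnA over wild type (vertical axis), of the brightest tested probe of each gene in the Hox set and 6 lists of related genes (horizontal axis); filled points have adjusted p under 0.05 and bars are medians. The medians of the activators and hindbrain regulators (-0.36) and of the other axial markers (-0.47) lie below that of the Hox genes (-0.06).

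A list of genes linked to the Hox clusters had 5 of 24 tested members higher and 7 lower (50%, beside 41.3% of all named genes), with a median of -0.00. Not all of them lie beside a cluster in the RefSeq gene order, where some stand 30 to 168 genes from the nearest Hox gene. skap2, which adjoins hoxa2b in that order, fell with -0.83, -0.80 and -0.92 (mean -0.85, SE 0.08, adjusted p = 1.8e-04). skap1, its relative next to hoxb5b, fell with -0.88, -0.89 and -0.74 (mean -0.84, adjusted p = 2.1e-04), with -0.41 and -0.13 for its other probes. Both encode adaptor proteins of immune cell signalling, and the Hox genes beside them, hoxa2b at -0.27 and hoxb5b at 0.11, were not called. Of the 3 tested genes in the cluster of hoxb5b, 1 was called, hoxb1b, which fell (mean -0.55, adjusted p = 0.00182).

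Beside hoxa1a, which stood at 0.01, snx10a rose by 0.45 (SE 0.09, adjusted p = 0.00515), nfe2l3 by 0.52 (SE 0.12, adjusted p = 0.0103) and cbx3a by 0.31 (SE 0.08, adjusted p = 0.0178). The cbx3a call ended without replicate 2 (adjusted p = 0.0713) and without replicate 3 (adjusted p = 0.0612). snx10b, 2 genes from hoxa2b, fell by 0.77 (SE 0.13, adjusted p = 0.00268), and its value by the authors' log ratio was -1.85. The probe passed the background mark in morphants on 2 of the 3 arrays and in wild type on all 3. calcoco2, which rose by 0.66, and snx11, which fell by 0.74, lie 93 and 96 genes from the nearest Hox gene in that assembly.

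Markers of body regions moved as well. Of 25 tested marker genes 2 rose and 17 fell, beside 19.3% higher and 22% lower among all named genes. All 3 hindbrain markers fell, egr2b by 0.83 (adjusted p = 2.1e-04), mafba by 0.57 (adjusted p = 0.00787) and epha4a by 1.26 (adjusted p = 5.4e-04), though the other epha4a probe had -0.14. All 4 tested tail bud markers fell, tbxta by 0.61 (adjusted p = 9.5e-04), tbx16 by 0.46 (adjusted p = 0.00333, with -2.11 for its other probe), wnt8a as above, and cdx4 by 0.33 (adjusted p = 0.0171), whose call ended without replicate 2 (adjusted p = 0.112). With median centring none of these hindbrain and tail bud calls held (adjusted p between 0.0569 and 0.833). Forebrain and midbrain markers fell in 4 of 5 and those of the midbrain-hindbrain boundary in 3 of 3. Spinal cord and somite markers each had 1 rise and 1 fall among 4, and 1 of 2 fin bud markers fell.

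Other axial markers, the genes of the notochord and presomitic mesoderm, had 6 falls among 8 tested genes (75%, beside 22% lower among all named genes) and a median of -0.47. Without normalization that median was -0.06, where all named genes had 0.39. tbx6 fell by 0.68 (adjusted p = 4.7e-04), noto by 0.56 (adjusted p = 0.00129) and mespba by 0.47 (adjusted p = 0.00307). The part of these regional changes in the Hox values was not tested.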

How the data were processed

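RNA of morphant and wild-type embryos was compared on 3 two-colour arrays of Agilent design 019161. Intensities were quantified with Agilent Feature Extraction (version 8.5.1.1 per the submitters' processing notes, 10.5.1.1 per the file headers). Each deposited file holds the median intensity of spot and background per dye, and the log10 of the red to green ratio. The authors' value table repeats that log10 ratio, with replicate 3 turned in sign and a median of 0 in each column.

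From the median intensities, background was corrected with normexp (offset 50), which pulls ratios of dim probes toward 0, and ratios were loess-normalized within arrays in limma 3.58.1 (R 4.3.3). Control and marked spots had weight 0, and replicate 3 was multiplied by -1, so log2 ratios are morphant over wild type. A tested probe had to pass the scanner's well-above-background mark on every array in either the morphant or the wild-type channel (28693 did) and to be unmarked on every array, which left 25071. Ratios were tested against 0 with lmFit and eBayes (limma, 2 residual degrees of freedom per probe). The p-values were Benjamini-Hochberg adjusted across the tested probes, and the threshold was 0.05. The method was tested on simulated data. Spots of a probe were averaged, and a gene is read by its brightest tested probe. The 3 arrays limit the precision. Normalized signals are each channel's values after loess and a quantile normalization of the average spot intensities between arrays. Comparisons of signals across arrays rest on that added step, which was not part of the tested ratios.

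Of 43603 probes, 16770 were named by accession through RefSeq's GRCz12tu gene table, and coordinates are left out because the arrays were designed on an older build, per the file headers. The other 26833 stayed unnamed. Every Hox gene with a probe is named, with values on each array for those called or read by several probes. From each gene list, at most 4 called genes of largest change in either direction are named. Some genes not called by their brightest probe are named for a dimmer probe past the threshold. The Hox members and the lists were chosen with earlier results of these data known. A further 14 settings were tried.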

Additional observations from a re-analysis of the deposited data

How the results depend on the processing

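Leaving aside the other 2 centrings, 8 of the 21 Hox calls and 25 of 32 named partner calls held under each setting that was run for them. The mean of all probes was not run for the dimmer probes, which are 4 of the 8 (hoxb7a, hoxc13a, hoxc8a and hoxd12a), and the dimmer hoxd12a probe and snx10b have no value above background in both channels. With median centring, limma called 1 Hox probe higher and 0 lower and 0 Hox genes either way (3 and 0 probes, 1 and 0 genes at an unadjusted p under 0.05). The Hox median was then 0.0751 (anterior 0.14, central 0.0245, posterior 0.0543), and 0 partner genes were higher and 3 lower. Without normalization limma called 0 Hox probes, Hox genes or partner genes (1 Hox probe, 0 Hox genes and 3 partner genes at an unadjusted p under 0.05), and the medians were 0.33, 0.39, 0.28 and 0.31 in the same order. Values that then turned above 0 were hoxb5a 0.0794, hoxb7a 0.028, hoxc12b 0.15, hoxc5a 0.0415, hoxc8a 0.0846, hoxd11a 0.15, aebp2 0.19, cbx2 0.0593, cdx4 0.0875 and psip1a 0.17. In that fit the median of all named genes was 0.39, and each of these values lay below it. The cause was not tested.

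The authors' log ratio ended 7 Hox calls and gave 6 lower Hox probes, 3 higher and 5 lower Hox genes and a median of -0.0211. A dye term ended 9 and gave 5 and 7 Hox probes and 1 and 6 Hox genes. On the whole array the authors' log ratio called 9387 of 25071 probes and the dye term 7054, against 9435 in the fit used for the results. The mean of all probes of a gene gave 6 lower genes, medians of -0.0261 (all) and -0.0472 (posterior), and turned hoxb7a to 0.0561 and hoxd12a to 0.35. With 1 replicate left out, 4 to 6 Hox probes were higher and 7 lower, and 1 to 2 genes higher and 6 lower. The median ranged from -0.11 to -0.0232 (anterior -0.0478 to 0.0181, central -0.20 to -0.11, posterior -0.13 to -0.0572), and 7 to 10 partner genes were higher and 29 to 35 lower. Fewer arrays leave fewer calls by construction, and 6187 to 8234 probes were then called on the whole array.

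The other settings (background correction, offset, marked spots, filters, slide block) kept these counts within 1.5 times. Hox members could not be chosen by a gene name column, which the files do not hold, so that setting was not run. Each log ratio is the difference within a morphant and wild-type pair, so the analysis is paired by array and a further replicate block was not possible. With 3 arrays on 2 slides, and replicate 3 alone in its dye orientation, its deviation and the dye cannot be told apart.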
